A study of Homo sapiens with 12 samples.

Results

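The 10 genes described here encode plasma membrane transporters of amino acids. They were chosen by name (SLC1A4, SLC1A5, SLC3A2, SLC7A1, SLC7A5, SLC7A6, SLC7A11, SLC38A1, SLC38A2 and SLC38A5), and all 10 were found among the 26481 genes of the count table. These genes and the gene lists below were chosen with earlier results of these data known. Their counts and medians beside those of all genes are therefore a description and not a test. Of these 10, 9 passed the filter on low counts and were tested among 14164 genes, whereas SLC38A1 did not pass. The source of the RNA was the HEL line, established from a human erythroleukemia, whose cells had been tagged with DNA barcodes and treated with chemotherapy in culture. The untreated group (NT, n = 2) was kept with 0.1 µM DMSO, the solvent control. Doxorubicin was given at 1.8 µM in all treated groups. It was given alone in Doxo (n = 3), together with cytarabine at 6 µM in Doxo+Cyta (n = 3), and with the same cytarabine plus decitabine at 0.1 µM in Doxo+Cyta+DAC (n = 4). Doxorubicin is an anthracycline, cytarabine is a nucleoside analogue that blocks DNA synthesis, and decitabine is an inhibitor of DNA methylation. Treatment lasted 72 to 74 h, after which dead cells were removed and the survivors grew for about 30 days until each culture was back at its starting number of cells. The libraries of the treated groups therefore describe relapsed cultures after regrowth, each from the surviving barcoded clones of 1 line. The series' design text speaks of 3 untreated cultures, and 2 carry that label and were used.

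Amino acids enter cells through families of carriers with different substrates. SLC3A2 (CD98, or 4F2 heavy chain) is a glycoprotein with no transport activity of its own, which pairs through a disulfide bond with a light chain and brings it to the membrane. Its light chains include SLC7A5 (LAT1, leucine and other large neutral amino acids), SLC7A6 (y+LAT2, cationic against neutral amino acids) and SLC7A11 (xCT, cystine against glutamate). SLC7A1 (CAT1) carries arginine and lysine without a heavy chain. SLC1A5 (ASCT2) exchanges glutamine, serine and other neutral amino acids, and SLC1A4 (ASCT1) exchanges serine and other small neutral amino acids. SLC38A1 and SLC38A2 (SNAT1 and SNAT2) take up neutral amino acids with sodium, and SLC38A5 (SNAT5) is a system N carrier of glutamine, histidine and glycine. Several of these genes are known targets of ATF4, MYC or NFE2L2 in other cells, and leukemic cells are known to depend on glutamine, leucine and cystine.

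The depth was 12763582 to 19106235 counts per library. As a limit of detection, 3 counts were taken, which amounted to 0.157 to 0.235 CPM of the unscaled library totals. CPM is the usual unit of counts scaled to a common library total. This limit covers counting error only. No library repeated another of its group: the chi-square of the counts over genes was 3.1 to 48.5 per degree of freedom within groups. Doxo replicate 4 stood apart from Doxo 5 and 6 (29.7 and 27.3, against 3.1 between 5 and 6), and Doxo+Cyta replicate 20 stood apart from 19 and 22 (46.7 and 48.5, against 7.33). The comparisons were therefore also run without both, on a reduced set of 10 libraries. This set was chosen after these counts were seen, and it called more genes in every comparison, for example 5267 against 1515 in Doxo relative to NT. Its smaller adjusted p-values are therefore not separate evidence. In such bulk libraries, fewer cells of a kind and less RNA per cell cannot be told apart. Apart from the limit of 3 counts, CPM are scaled by the TMM factors throughout, and levels of different genes are compared only per kilobase of exon (RPKM).

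The question behind the first comparisons was how transporter transcripts in relapses that had received decitabine differed from those in NT cells and in relapses after chemotherapy alone. Relative to NT, 7 of the 9 tested transporters were higher in Doxo+Cyta+DAC and none was lower (edgeR's quasi-likelihood test, adjusted p under 0.05). Over all 14164 tested genes, 24.9% were higher and 23.7% were lower in this comparison. The same number of transporters, 7 of 9, was higher relative to Doxo, where 29.1% of all genes were higher and 30.4% lower. Relative to Doxo+Cyta, 8 of 9 were higher, with 29.8% of all genes higher and 30.5% lower. With upper-quartile scaling, the split over all genes turned to 2960 higher and 3891 lower against NT, from 3530 and 3363, and was 3865 and 4483 against Doxo and 3711 and 4830 against Doxo+Cyta, while 7, 7 and 8 transporters were again higher and none lower. No transporter was called lower in any of the 3 comparisons, and by DESeq2 the counts were also 7, 7 and 8. The median log2 fold change of the 9 transporters was 1.00 against NT, 0.99 against Doxo and 1.19 against Doxo+Cyta, beside medians over all genes of 0.02, -0.01 and 0. These 3 comparisons share the same 4 Doxo+Cyta+DAC libraries and are not independent of each other. The transporters that rose in all 3 were SLC1A4, SLC1A5, SLC7A1, SLC7A5, SLC7A6, SLC7A11 and SLC38A5. SLC38A2 rose only relative to Doxo+Cyta among them, and SLC3A2 passed in none. Without Doxo 4 and Doxo+Cyta 20 together, 9 were higher against NT, 7 against Doxo and 9 against Doxo+Cyta, with medians of 0.98, 1.13 and 1.36. Over all genes that fit called 4232 higher and 4307 lower against NT, 4768 and 4798 against Doxo, and 4693 and 4716 against Doxo+Cyta. For each of the 7, every Doxo+Cyta+DAC library lay above all 8 other libraries, as was the case for 21.5% of all tested genes, while 20.1% had every such library below all others.

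**Figure D1:**
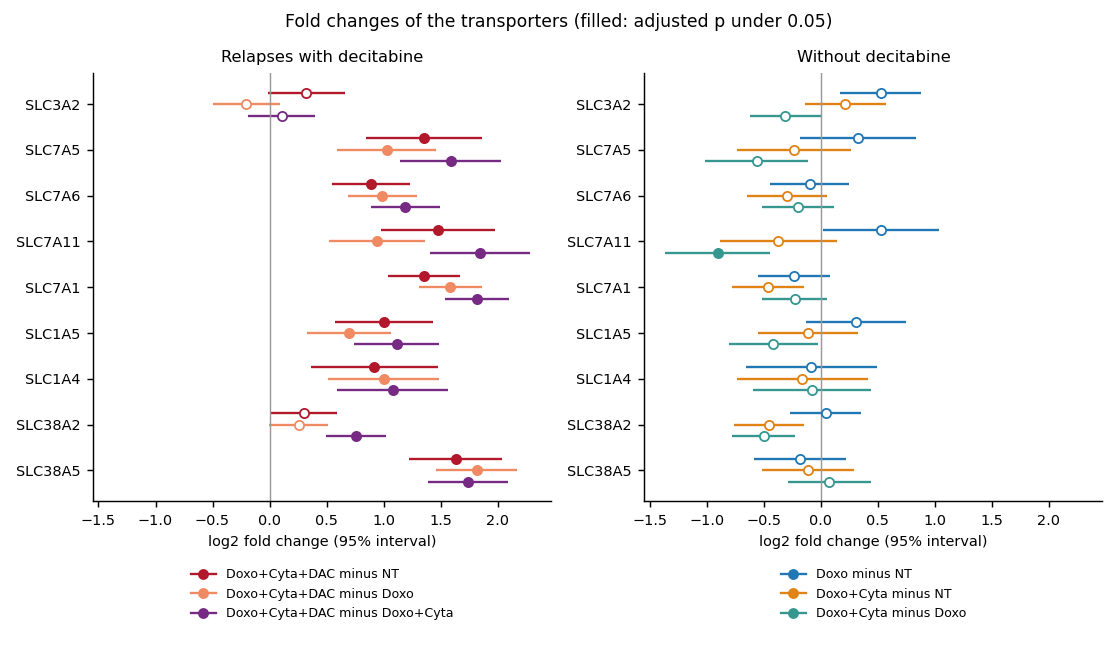
Log2 fold change of each tested transporter (horizontal axis) with its 95% interval, for the 3 comparisons of Doxo+Cyta+DAC (left) and the 3 comparisons without it (right). Filled points passed an adjusted p under 0.05 and open points did not. On the left 7 transporters are filled and right of 0 in every comparison, SLC38A2 is right of 0 throughout but filled only against Doxo+Cyta, and SLC3A2 lies near 0, while on the right 1 point is filled, SLC7A11 in Doxo+Cyta relative to Doxo.

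Since 7 transporters were called in the same direction, the 250 bases before the RefSeq start sites (GRCh38.p14) of the 10 transporters were searched on both strands. The motifs were those of 3 factors known to act on such genes. A window was given for 9 of the 10 transporters, all but SLC7A11, which was among the 7 called. These 9 include SLC38A1, which was not tested, and SLC3A2 and SLC38A2, which were not among the 7. The E-box CACGTG, bound by MYC and related factors, was in a window of 3 of the 9 (SLC1A5, SLC7A5 and SLC38A5), beside 7.73% of all 27305 genes with a window. The antioxidant response element TGACNNNGC, bound by NFE2L2 with its partners, was in a window of 4 of the 9 (SLC1A5, SLC3A2, SLC7A1 and SLC7A6), beside 13.2% of all genes. The C/EBP-ATF element TGATGNAA, bound by ATF4 with C/EBP factors, was in 1 window of SLC1A5 and in 3.89% of all genes. All matches of SLC1A5 lay before internal start sites, and the window before its outermost start site held none of the 3 motifs. The 9 genes had 15 windows, whereas all 27305 genes had 35116, so these shares per gene are not fully alike. A match is a description of the letters and not a binding site. Bases after the start sites were not searched, so a gene without a match may still hold an element there. The 5 windows that follow, of the light chains SLC7A5 and SLC7A6, their heavy chain SLC3A2 and the carriers SLC7A1 and SLC38A5, are printed 5′ to 3′ on the strand of the gene without bases that an exon covers, with the matches in capitals.
SLC7A5 (minus strand, chr16:87869508-87869757): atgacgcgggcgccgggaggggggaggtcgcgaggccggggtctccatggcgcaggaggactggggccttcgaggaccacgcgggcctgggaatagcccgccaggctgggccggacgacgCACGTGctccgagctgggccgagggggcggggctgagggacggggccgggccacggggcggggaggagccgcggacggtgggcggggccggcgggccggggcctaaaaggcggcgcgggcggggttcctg
SLC38A5 (minus strand, chrX:48470261-48470510): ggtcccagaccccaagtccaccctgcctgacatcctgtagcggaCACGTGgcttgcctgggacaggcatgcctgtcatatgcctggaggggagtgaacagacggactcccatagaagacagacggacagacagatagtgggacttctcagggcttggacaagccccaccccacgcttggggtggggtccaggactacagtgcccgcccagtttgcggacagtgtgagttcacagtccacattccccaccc
SLC7A1 (minus strand, chr13:29595689-29595938): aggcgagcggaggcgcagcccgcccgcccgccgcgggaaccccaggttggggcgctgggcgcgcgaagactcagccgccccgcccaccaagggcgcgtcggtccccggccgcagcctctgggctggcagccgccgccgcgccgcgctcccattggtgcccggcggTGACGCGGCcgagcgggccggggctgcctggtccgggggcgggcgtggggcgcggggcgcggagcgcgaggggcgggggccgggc
SLC7A6 (plus strand, chr16:68264276-68264515): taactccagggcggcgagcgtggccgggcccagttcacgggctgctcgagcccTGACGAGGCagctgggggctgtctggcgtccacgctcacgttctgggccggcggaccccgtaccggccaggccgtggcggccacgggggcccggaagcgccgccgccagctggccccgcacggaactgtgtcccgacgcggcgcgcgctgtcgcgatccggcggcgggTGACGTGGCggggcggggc
SLC3A2 (plus strand, chr11:62881454-62881697): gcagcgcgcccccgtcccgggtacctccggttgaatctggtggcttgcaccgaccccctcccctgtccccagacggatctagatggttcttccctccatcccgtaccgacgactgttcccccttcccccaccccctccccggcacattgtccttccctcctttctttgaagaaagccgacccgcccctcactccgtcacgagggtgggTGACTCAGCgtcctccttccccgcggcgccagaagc
The capitals mark the E-box in the windows of SLC7A5 and SLC38A5 and the antioxidant response element in the other 3, with 2 matches in SLC7A6. The E-box of SLC7A5 began 130 bases before the start site and that of SLC38A5 206 bases before it. In SLC3A2, the 1 gene of these 5 that passed in none of the 3 comparisons, the element began 37 bases before the start site of an internal transcript, and its other windows held none of the 3 motifs.

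SLC3A2, the shared heavy chain (chromosome 11, 62856012 to 62888883 on GRCh38, 14 exons), stood at 106 and 110.5 CPM in the NT libraries, at 175, 144 and 149 after Doxo, at 112, 160.4 and 105 after Doxo+Cyta and at 135, 122, 148 and 137 after Doxo+Cyta+DAC. The decitabine relapses lay above both NT libraries but within the range of the relapses without decitabine, and Doxo+Cyta 20 was high among its replicates. The log2 difference of Doxo+Cyta+DAC was 0.32 (SE 0.16, adjusted p = 0.108) from NT, -0.20 (SE 0.14, adjusted p = 0.215) from Doxo and 0.11 (SE 0.14, adjusted p = 0.525) from Doxo+Cyta. The 95% interval against Doxo+Cyta was -0.19 to 0.40. Without Doxo 4 and Doxo+Cyta 20, SLC3A2 passed against NT, with a difference of 0.30 (adjusted p = 0.0067), and against Doxo+Cyta, with 0.32 (adjusted p = 0.00405). Over all 18 alternatives its adjusted p ran from 0.0067 to 0.336 against NT and from 0.00405 to 0.941 against Doxo+Cyta. Leaving out Doxo+Cyta 20 alone was enough for both calls.

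SLC7A5, the LAT1 light chain (chromosome 16, 87830023 to 87869494), stood at 155 and 185 CPM in NT, at 295, 173 and 172 after Doxo, at 126, 184 and 122 after Doxo+Cyta and at 382, 404, 524 and 425 after Doxo+Cyta+DAC. Every decitabine relapse was above every other library, and Doxo 4 and Doxo+Cyta 20 were the high libraries of their groups. SLC7A5 rose by 1.35 (SE 0.24, adjusted p = 0.000417) on the log2 scale relative to NT, by 1.03 (SE 0.20, adjusted p = 0.000602) relative to Doxo and by 1.59 (SE 0.21, adjusted p = 1.73e-05) relative to Doxo+Cyta, which is 2.55-fold, 2.04-fold and 3.01-fold. On the reduced set, these changes were 1.33 (adjusted p = 9.91e-07), 1.34 (adjusted p = 4.61e-07) and 1.80 (adjusted p = 4.78e-08). SLC7A5 has near-identical pseudogene copies, and fragments that could come from either are uncertain.

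SLC7A6, the y+LAT2 light chain (chromosome 16, 68264516 to 68301823), was at 49.2 and 59.5 CPM in NT, 59.9, 48.4 and 44 after Doxo, 50.3, 35.5 and 46.6 after Doxo+Cyta and 96.8, 107, 101 and 98.3 after Doxo+Cyta+DAC. The 4 decitabine relapses lay close together and above all other libraries, and Doxo+Cyta 20 was the lowest library. The rise was 0.89 (SE 0.16, adjusted p = 0.000505) relative to NT, 0.99 (SE 0.14, adjusted p = 4.07e-05) relative to Doxo and 1.19 (SE 0.14, adjusted p = 7.79e-06) relative to Doxo+Cyta. On the reduced set it was 0.87, 1.13 and 1.05, with adjusted p of 4.67e-06, 2.8e-07 and 5.59e-07. With all libraries it was the smallest fold change against NT among the 7 called transporters. Exons of SLC7A6 overlap those of SLC7A6OS on the opposite strand, and the counting took no account of strand. The overlap was 791 bases summed over pairs of exons, where a base can count more than once.

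SLC7A11, the xCT light chain (chromosome 4, 138164094 to 138242349), was the lowest tested transporter per length of exon, with 119 to 507 counts per library. Its level was 8.69 and 11.5 CPM in NT, 17.0, 14.0 and 12.7 after Doxo, 7.48, 7.94 and 7.94 after Doxo+Cyta and 19.2, 29.6, 26.6 and 36.7 after Doxo+Cyta+DAC. None of the 4 groups overlapped, with Doxo+Cyta the lowest, then NT, then Doxo, and the decitabine relapses spread most widely at the top. SLC7A11 rose by 1.47 (SE 0.23, adjusted p = 0.000192) over NT, by 0.94 (SE 0.20, adjusted p = 0.00091) over Doxo and by 1.85 (SE 0.21, adjusted p = 4.67e-06) over Doxo+Cyta, the last being 3.59-fold. The reduced set gave 1.45, 1.07 and 1.85, all past the threshold. Its exons overlap those of its antisense gene SLC7A11-AS1, by 276 bases summed over pairs of exons in the same way.

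**Figure D2:**
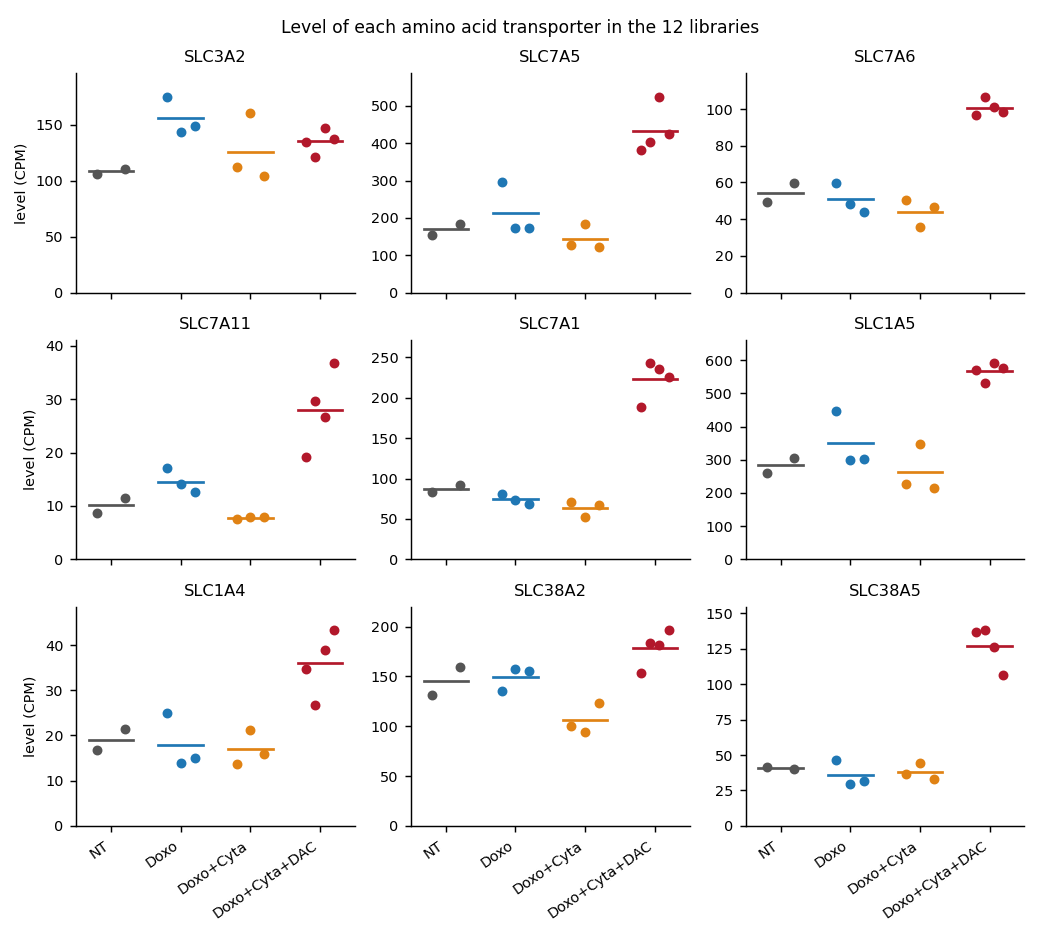
Level in CPM (vertical axis, linear from 0) of the 9 tested transporters in each of the 12 libraries, by group. Points are libraries in order of their replicate number and bars are group means. In 7 panels, against 21.5% of all 14164 tested genes, every Doxo+Cyta+DAC library lies above every other library, for example SLC38A5 at 107 to 138 against 29.7 to 46.8, while SLC3A2 and SLC38A2 overlap with other groups.

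Because each light chain needs the heavy chain to reach the membrane, the per-length levels of the light chains (SLC7A5, SLC7A6, SLC7A11, SLC7A7, SLC7A8 and SLC7A10 summed) were set against that of SLC3A2. The ratio was 1.19 and 1.37 in the NT libraries, 1.28, 0.973 and 0.916 after Doxo, 0.973, 0.875 and 1.02 after Doxo+Cyta, and 2.2, 2.63, 2.66 and 2.41 after Doxo+Cyta+DAC. Light chain and heavy chain transcripts were thus at similar per-length levels in the first 3 groups, and every decitabine relapse had more than 2 light chain units for each SLC3A2 unit. Fragments across exon junctions are counted less, and some SLC7A5 fragments are uncertain. Per-length levels of different genes, here and in the order of transporters, are therefore approximate. The mean ratio was 2.47 ± 0.22 (SD, n = 4) in Doxo+Cyta+DAC and 1.28 ± 0.13 (n = 2) in NT. No test was run on this ratio, which is made of the same values as the fold changes. SLC7A5 made up 73.5% to 85.5% of the light chain sum in the 12 libraries. SLC7A7, the y+LAT1 light chain, had mean levels of 2.07 to 3.32 CPM in the 4 groups, SLC7A8, the LAT2 light chain, 0.257 to 0.781 CPM, and SLC7A10 had 0 counts in every library. Neither SLC7A7 (-0.35, adjusted p = 0.211) nor SLC7A8 (-0.28, adjusted p = 0.637) passed between Doxo+Cyta+DAC and Doxo+Cyta.

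**Figure D3:**
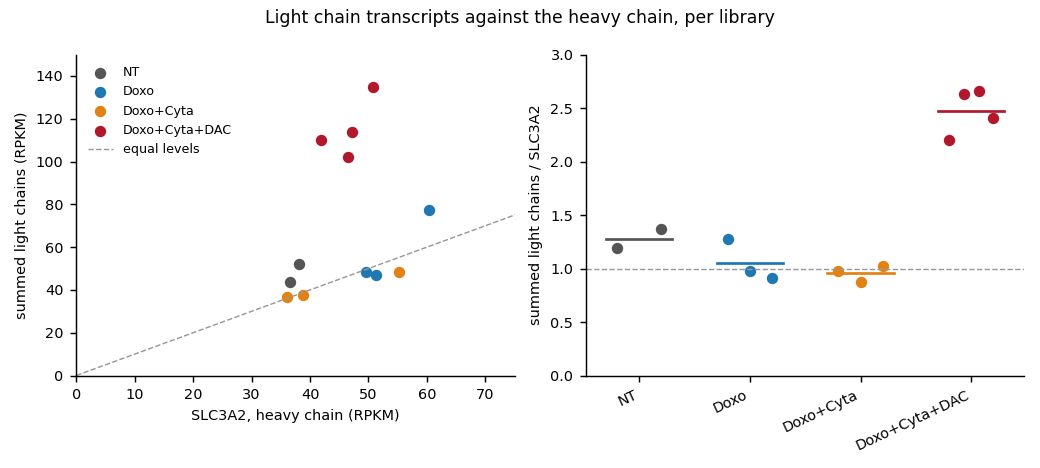
Left, summed per-length level of the 6 light chains (vertical axis, RPKM) against that of the heavy chain SLC3A2 (horizontal axis, RPKM) in each library, with a dashed line of equal levels. Right, their ratio by group, with bars for group means and a dashed line at 1. Decitabine relapses have ratios of 2.2 to 2.66 and the other 8 libraries 0.875 to 1.37, while SLC3A2 itself covers 36.1 to 60.4 RPKM over all libraries.

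SLC7A1, the cationic amino acid carrier CAT1 (chromosome 13, 29509414 to 29595688), was at 82.8 and 92.0 CPM in NT, 81.0, 73.3 and 68.9 after Doxo, 71.4, 52.2 and 66.7 after Doxo+Cyta and 189, 243, 236 and 226 after Doxo+Cyta+DAC. The groups without decitabine sat in a narrow band, with both NT libraries on top, and the decitabine relapses were well above it. SLC7A1 rose by 1.35 (SE 0.15, adjusted p = 1.25e-05) over NT, by 1.59 (SE 0.13, adjusted p = 5.62e-07) over Doxo and by 1.81 (SE 0.13, adjusted p = 1.52e-07) over Doxo+Cyta. The last was 3.52-fold, or 1.69 on the log2 scale (adjusted p = 2.45e-08) without Doxo 4 and Doxo+Cyta 20, and with all libraries its adjusted p was the smallest of all transporters in that comparison.

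SLC1A5, the glutamine exchanger ASCT2 (chromosome 19, 46774883 to 46788585), was the most abundant transporter in every group per length of exon. It stood at 260.4 and 306 CPM in NT, 448, 300.1 and 302 after Doxo, 226, 346 and 214 after Doxo+Cyta and 572, 530.2, 590.5 and 576 after Doxo+Cyta+DAC. All 4 decitabine relapses were above all other libraries, of which Doxo 4 came nearest. Log2 fold changes were 1.00 (SE 0.20, adjusted p = 0.00112) relative to NT, 0.70 (SE 0.17, adjusted p = 0.0033) relative to Doxo and 1.11 (SE 0.18, adjusted p = 9.18e-05) relative to Doxo+Cyta. On the reduced set, the differences were 0.98 (adjusted p = 4.46e-07) from NT, 1.36 (adjusted p = 1.53e-08) from Doxo+Cyta and 0.92 (adjusted p = 3.31e-07) from Doxo, and over the 18 alternatives the last adjusted p ran from 3.31e-07 to 0.0232. SLC1A4, the exchanger ASCT1 of the same family (chromosome 2, 64988445 to 65023866), stood at 16.7 and 21.4 CPM in NT, 25.1, 13.9 and 15.0 after Doxo, 13.7, 21.3 and 16.0 after Doxo+Cyta and 34.8, 26.8, 38.8 and 43.3 after Doxo+Cyta+DAC. Again no other library reached the lowest decitabine relapse, though Doxo 4 lay just under it. SLC1A4 rose by 0.92 (SE 0.26, adjusted p = 0.00983), 1.00 (SE 0.23, adjusted p = 0.00177) and 1.08 (SE 0.23, adjusted p = 0.00099) relative to NT, Doxo and Doxo+Cyta. The reduced set gave 0.89 (adjusted p = 0.00059), 1.32 (adjusted p = 2.31e-05) and 1.27 (adjusted p = 3.27e-05). The call against NT was lost without NT replicate 1 (0.74, adjusted p = 0.119), where a single NT library was left and was taken to vary like the other groups. Over the 18 alternatives that adjusted p ran from 0.00059 to 0.119.

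SLC38A5, the system N carrier SNAT5 on chromosome X (48458537 to 48470256), had the largest fold change of the transporters against NT. It stood at 41.8 and 40.1 CPM in NT, 46.8, 29.7 and 32.0 after Doxo, 36.9, 44 and 33.2 after Doxo+Cyta and 137, 138, 126 and 107 after Doxo+Cyta+DAC. The 8 libraries without decitabine shared 1 low range, and the lowest decitabine relapse was well above the highest of them. SLC38A5 rose by 1.63 (SE 0.19, adjusted p = 1.94e-05) over NT, by 1.82 (SE 0.16, adjusted p = 1.24e-06) over Doxo and by 1.74 (SE 0.16, adjusted p = 1.12e-06) over Doxo+Cyta, or 3.10-fold, 3.52-fold and 3.34-fold. Its high libraries among the relapses without decitabine were Doxo 4 and Doxo+Cyta 20, and without them the log2 changes were 1.61, 2.05 and 1.86 (adjusted p = 1.48e-07, 1.02e-08 and 2.1e-08). Among all 14164 tested genes its log2 fold change ranked 419 from the highest against NT, 335 against Doxo and 393 against Doxo+Cyta.

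SLC38A2, the system A carrier SNAT2 (chromosome 12, 46358188 to 46372862), stood at 132 and 159 CPM in NT, 136, 158 and 156 after Doxo, 100.1, 94.6 and 123 after Doxo+Cyta and 153, 184, 182 and 197 after Doxo+Cyta+DAC. The Doxo+Cyta libraries were the low ones, and the decitabine relapses overlapped with NT and with Doxo. It rose relative to Doxo+Cyta by 0.76 (SE 0.12, adjusted p = 0.00012), and the differences from NT, 0.30 (SE 0.14, adjusted p = 0.0887), and from Doxo, 0.26 (SE 0.12, adjusted p = 0.0825), did not pass. Leaving out Doxo+Cyta+DAC replicate 30 brought both under the threshold (adjusted p = 0.046 and 0.0388), within ranges over the alternatives of 0.046 to 0.515 and 0.0388 to 0.204. Leaving out Doxo+Cyta 20 did so for the difference from Doxo (adjusted p = 0.0498), whereas without it and Doxo 4 the difference from NT passed (0.27, adjusted p = 0.0469) and that from Doxo did not (0.20, adjusted p = 0.131). The per-length ratio of SLC38A5 to SLC38A2 was 0.698 ± 0.11 (SD, n = 2) in NT, 0.603 ± 0.21 (n = 3) after Doxo, 0.902 ± 0.24 (n = 3) after Doxo+Cyta and 1.77 ± 0.36 (n = 4) after Doxo+Cyta+DAC. SLC38A1, or SNAT1 (chromosome 12, 46183056 to 46269425), had at most 1 count in any library and was not detectable at this depth, where 3 counts allow a level of up to 0.157 to 0.235 CPM.

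Set side by side per kilobase of exon, the order of the transporters in NT was SLC1A5 (88.3 ± 10.0 RPKM, SD, n = 2), SLC7A5 (37.4 ± 4.61), SLC3A2 (37.3 ± 1.04), SLC38A2 (29.8 ± 3.93), SLC38A5 (20.6 ± 0.594), SLC7A1 (11.9 ± 0.884), SLC7A6 (8.55 ± 1.15), SLC1A4 (3.99 ± 0.690) and SLC7A11 (1.05 ± 0.205). The ranges of SLC7A5 and SLC3A2 overlapped, and those of the other neighbours did not. In Doxo+Cyta+DAC the order was SLC1A5 (177 ± 8.06 RPKM, n = 4), SLC7A5 (95.5 ± 13.8), SLC38A5 (63.8 ± 7.33), SLC3A2 (46.6 ± 3.66), SLC38A2 (36.6 ± 3.72), SLC7A1 (30.4 ± 3.26), SLC7A6 (15.8 ± 0.687), SLC1A4 (7.52 ± 1.47) and SLC7A11 (2.91 ± 0.752). Here only SLC38A2 and SLC7A1 overlapped among neighbours. The relapses without decitabine had the order of NT except that SLC3A2 (53.7 ± 5.82 RPKM after Doxo and 43.3 ± 10.4 after Doxo+Cyta, n = 3 each) stood above SLC7A5 (46.9 ± 15.6 and 31.8 ± 7.58). In both, SLC3A2 overlapped with SLC7A5 and SLC7A1 with SLC7A6, and in Doxo+Cyta SLC38A2 also overlapped with SLC38A5. The main change of order was SLC38A5, which moved from place 5 to place 3. SLC3A2 went from place 3 to place 4, having been at place 2 after Doxo and after Doxo+Cyta. Summed over the 10 transporters, the level was 239 ± 22 RPKM in NT, 282 ± 54 after Doxo, 218 ± 40 after Doxo+Cyta and 476 ± 23 after Doxo+Cyta+DAC. SLC1A5 alone gave 34.8% to 41.1% of this sum in the 12 libraries, whereas the share of SLC3A2 was 15.0% to 21.0% in the 8 libraries without decitabine and 9.07% to 10.1% in the 4 with it.

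The relapses after chemotherapy alone were next compared with NT and with each other. In Doxo relative to NT, 0 of 9 transporters passed by edgeR's quasi-likelihood test, 2 had an unadjusted p under 0.05 and 1 passed by DESeq2, beside 6.06% of all genes higher and 4.63% lower. Over all genes the split was 859 higher and 656 lower, and with upper-quartile scaling 695 and 739. The 2 were SLC3A2 (0.52, SE 0.17, adjusted p = 0.0577) and SLC7A11 (0.53, SE 0.24, adjusted p = 0.159), both higher in all 3 Doxo libraries than in either NT library. SLC3A2 was the transporter that DESeq2 called (0.51, adjusted p = 0.0314), and its adjusted p ran from 0.00516 to 0.293 over the 18 alternatives. It was also called without Doxo+Cyta 20 (adjusted p = 0.0102). Without Doxo 4 and Doxo+Cyta 20 together, 3 passed: SLC3A2 was higher (0.40, adjusted p = 0.00516), while SLC7A1 (-0.33, adjusted p = 0.0398) and SLC38A5 (-0.44, adjusted p = 0.0155) were lower. For the last 2, the adjusted p over the alternatives ran from 0.0398 to 0.721 and from 0.0155 to 0.857. That fit called 5267 of all genes, 2564 higher and 2703 lower, against 1515 with every library.

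In Doxo+Cyta relative to NT, 0 of 9 passed by edgeR, 2 had an unadjusted p under 0.05, both lower, and 1 passed by DESeq2, beside 0.911% of all genes higher and 0.551% lower. These were SLC7A1 (-0.46, SE 0.15, adjusted p = 0.114) and SLC38A2 (-0.46, SE 0.14, adjusted p = 0.109), whose Doxo+Cyta libraries all lay under both NT libraries. DESeq2 called SLC38A2 (-0.47, adjusted p = 0.049, the lowest of a range up to 0.675). Without Doxo 4 and Doxo+Cyta 20 together, SLC1A5 (-0.38, adjusted p = 0.0132) and SLC7A5 (-0.47, adjusted p = 0.0305) were lower, at the low ends of ranges up to 0.996 and 0.959. That fit left 2 Doxo+Cyta libraries and called 2037 of all genes, 855 higher and 1182 lower, against 207 with every library.

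Between the relapses without decitabine, 1 of 9 transporters differed, beside 1.07% of all genes higher and 2.32% lower in Doxo+Cyta relative to Doxo. With upper-quartile scaling the split over all genes was 205 higher and 249 lower, against 152 and 329. SLC7A11 fell by 0.90 on the log2 scale (SE 0.21, adjusted p = 0.0352), and its groups did not overlap. This call held under 7 of 18 alternatives, with adjusted p between 0.00324 and 0.118. It was lost without any 1 of 9 libraries (NT 1 or 2, any Doxo library, any Doxo+Cyta library, or Doxo+Cyta+DAC 32), with adjusted p between 0.0512 and 0.118. SLC38A2 was just outside the threshold (-0.50, SE 0.13, adjusted p = 0.0504) and was called by DESeq2 and in 5 other alternatives. SLC7A5 (-0.56, SE 0.21, adjusted p = 0.164) and SLC1A5 (-0.42, SE 0.18, adjusted p = 0.235) had an unadjusted p under 0.05 and did not pass. Without Doxo 4 and Doxo+Cyta 20 together, SLC1A5, SLC3A2, SLC7A5 and SLC38A2 were lower (-0.42 to -0.48 with adjusted p = 0.00946 to 0.0451) and SLC7A11 was not called (-0.78, adjusted p = 0.0734). Over all genes that fit called 533 higher and 728 lower.

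The 3 transporters with the widest range of group means on the log2 CPM scale were SLC38A5 (1.83), SLC7A1 (1.82) and SLC7A11 (1.80), which ranked 1214, 1240 and 1292 among the 14164 tested genes. For each, the genes with the most similar course over the 12 libraries were listed by the root-mean-square difference of centred log2 CPM, as a description. SLC38A5 was closest to ARMC6 (0.071), KIAA0020 (0.087) and CDC6 (0.123), the last a licensing factor of DNA replication. SLC7A1 was closest to G3BP1 (0.122), a stress granule protein, LIN28B (0.122), an RNA-binding protein that blocks let-7 maturation, and LOC100506606 (0.125). SLC7A11 was followed less closely, by C21orf91 (0.190), ZNF189 (0.198) and FOXO3B (0.210). Within the group the most similar courses were those of SLC1A5 and SLC7A5 (0.212) and of SLC1A4 and SLC1A5 (0.216). The nearest genes were picked from all 14164 tested genes and these pairs from the transporters only, so their values cannot be compared.

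Other plasma membrane and lysosomal amino acid carriers were counted from a list of 42 genes, of which 17 were tested. With decitabine, 3 were higher and 1 lower relative to NT, 8 and 2 relative to Doxo, and 5 and 2 relative to Doxo+Cyta, with a median of 0.21 in the last against 1.19 for the 9 transporters. For this list and those that follow, the shares of all tested genes were 24.9% higher and 23.7% lower relative to NT. They were 29.1% and 30.4% relative to Doxo, and 29.8% and 30.5% relative to Doxo+Cyta. SLC38A7 (SNAT7, a lysosomal glutamine carrier) rose from 1.07 ± 0.182 CPM (SD, n = 3) in Doxo+Cyta to 7.80 ± 0.857 (n = 4), a log2 change of 2.86 (SE 0.28, adjusted p = 1.72e-06). SLC36A4, a proton-independent carrier of proline and tryptophan, rose from 7.89 ± 0.695 to 18.4 ± 3.05 CPM (1.22, SE 0.17, adjusted p = 3.43e-05). In the other direction, SLC6A19, the neutral amino acid carrier B0AT1, went from 8.39 ± 3.13 to 0.881 ± 0.389 CPM (-3.23, SE 0.33, adjusted p = 2.2e-06). SLC38A3 (SNAT3), a system N carrier like SLC38A5, also fell by 2.42 (SE 0.56, adjusted p = 0.00206), from 1.14 ± 0.226 CPM in Doxo+Cyta to 0.199 ± 0.177 with decitabine, the latter near the limit of 3 counts. SLC38A10 rose relative to Doxo (0.85, SE 0.22, adjusted p = 0.00409) but had a difference of 0.39 from Doxo+Cyta (adjusted p = 0.132), which passed without Doxo 4 and Doxo+Cyta 20 (0.58, adjusted p = 0.000146). Without these libraries, 7 of the 17 were higher and 1 lower against NT, and 8 and 3 against Doxo+Cyta. Over all genes that fit called 4232 higher and 4307 lower against NT, and 4693 and 4716 against Doxo+Cyta.

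The factors known to act on these genes were measured too. MYC stood at 275 and 283 CPM in NT, 273, 224 and 216 after Doxo, 174, 216 and 172 after Doxo+Cyta and 504, 455, 512 and 539.9 after Doxo+Cyta+DAC. All decitabine relapses were above all other libraries, and MYC rose by 0.85 (SE 0.13, adjusted p = 0.00016), 1.08 (SE 0.11, adjusted p = 3.74e-06) and 1.42 (SE 0.12, adjusted p = 3.58e-07) relative to NT, Doxo and Doxo+Cyta. NFE2L2, the regulator of the antioxidant response, was at 44.5 and 50.5 CPM in NT, 59.2, 85.3 and 87.5 after Doxo, 55.5, 54.4 and 57.7 after Doxo+Cyta and 101, 117, 112 and 149.9 after Doxo+Cyta+DAC. It was again highest in every decitabine relapse (by 1.34, SE 0.18, adjusted p = 6.3e-05, by 0.63, SE 0.15, adjusted p = 0.00268 and by 1.10, SE 0.15, adjusted p = 3.51e-05 relative to NT, Doxo and Doxo+Cyta), and it was also higher in Doxo than in NT (0.70, SE 0.18, adjusted p = 0.0278). ATF4, the factor of the amino acid response, showed another order, with 466 and 452 CPM in NT, 670.2, 734 and 759 after Doxo, 556, 661 and 539 after Doxo+Cyta and 555, 582, 585 and 587 after Doxo+Cyta+DAC. Doxo had the highest ATF4 transcript levels, NT the lowest, and the decitabine relapses lay within the range of Doxo+Cyta. ATF4 rose relative to NT by 0.65 (SE 0.11, adjusted p = 0.00386) in Doxo and by 0.33 (SE 0.10, adjusted p = 0.0166) in Doxo+Cyta+DAC, and fell relative to Doxo (-0.32, SE 0.09, adjusted p = 0.00687), with a difference of -0.02 from Doxo+Cyta (adjusted p = 0.853). ATF4 is known to be controlled at translation, which transcript counts do not show.

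Of the 8 genes on a list of transporter regulators, all tested, 4 were higher and 2 lower in Doxo+Cyta+DAC relative to NT, 3 and 3 relative to Doxo, and 3 and 2 relative to Doxo+Cyta. LAPTM4B, a lysosomal membrane protein that binds LAT1 and 4F2hc, rose from 343 ± 55.5 CPM in Doxo+Cyta to 1003 ± 156 (1.55, SE 0.18, adjusted p = 5.85e-06). TXNIP, an inhibitor of glucose uptake and of thioredoxin, fell from 1341 ± 191 to 222 ± 49.3 CPM (-2.60, SE 0.19, adjusted p = 1.44e-07), and Doxo was at 1773 ± 419. In Doxo relative to NT, 3 were higher and none lower, or 3 and 2 without Doxo 4 and Doxo+Cyta 20. Over all genes, 6.06% were higher and 4.63% lower there, or 2564 and 2703 genes without those libraries.

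A list of 20 genes of the amino acid response, 18 of them tested, did not move in 1 direction. The relapses with decitabine had 6 higher and 4 lower relative to NT, 5 and 8 relative to Doxo, and 5 and 4 relative to Doxo+Cyta, with medians of 0.23, 0.01 and 0.06. The higher ones included enzymes of serine synthesis: PSAT1 rose from 20.9 ± 6.67 CPM in Doxo+Cyta to 70.4 ± 15.6 (1.75, SE 0.25, adjusted p = 4.34e-05), and PSPH from 5.88 ± 2.47 to 15.8 ± 0.815 (1.43, SE 0.31, adjusted p = 0.00109). Among the lower ones were DDIT4, an inhibitor of mTORC1 signalling, at 182 ± 26.2 and 61.9 ± 24.9 CPM (-1.56, SE 0.23, adjusted p = 4.92e-05), and VLDLR, a lipoprotein receptor, at 9.58 ± 2.39 and 0.883 ± 0.25 CPM (-3.40, SE 0.29, adjusted p = 5.18e-07). CHAC1, which breaks down glutathione, and ATF3 were lower than in Doxo. CHAC1 fell by 2.00 (SE 0.30, adjusted p = 6e-05), and ATF3 fell by 1.69 (SE 0.25, adjusted p = 5.17e-05) from a Doxo level that was at 51.5 ± 4.78 CPM against 14.2 ± 0.919 in NT. In Doxo relative to NT, 4 of the 18 were higher and none lower, or 7 and 2 without Doxo 4 and Doxo+Cyta 20. The shares of all genes there were 6.06% higher and 4.63% lower, or 2564 and 2703 genes without those libraries.

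Genes of cystine and glutathione use, the pathway that SLC7A11 feeds, were listed with 16 genes beside the transporters, all tested. After Doxo+Cyta+DAC, 5 were higher and none lower relative to NT, 6 and 2 relative to Doxo, and 7 and 2 relative to Doxo+Cyta. On the reduced set, 8 were higher and 1 lower against NT, beside 4232 and 4307 of all genes. TXNRD1, the cytosolic thioredoxin reductase, rose from 96.2 ± 6.44 CPM in Doxo+Cyta to 218 ± 9.92 (1.18, SE 0.09, adjusted p = 2.15e-07), and NQO1, a quinone reductase, rose relative to Doxo (1.09, SE 0.19, adjusted p = 0.000189). CBS, an enzyme of cysteine synthesis, rose at low levels, from 0.916 ± 0.374 to 1.92 ± 0.466 CPM (1.08, SE 0.42, adjusted p = 0.039). HMOX1, heme oxygenase, went the other way relative to Doxo (-1.62, SE 0.14, adjusted p = 7.79e-07), as did GGT1 relative to Doxo+Cyta (-1.72, SE 0.34, adjusted p = 0.000547). SLC7A11 itself had a larger log2 fold change than any of these rising genes in that comparison.

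Enzymes that use glutamine or glutamate, which SLC1A5 and SLC38A5 carry or exchange, were all tested (16 genes). After Doxo+Cyta+DAC, 5 were higher and 2 lower relative to NT, 9 and 2 relative to Doxo, and 8 and 3 relative to Doxo+Cyta. The pyrimidine enzymes CTPS1 and CAD rose from 36.0 ± 10.7 and 94.5 ± 9.77 CPM in Doxo+Cyta to 207 ± 13.5 and 300.5 ± 31.0, which gave 2.52 (SE 0.30, adjusted p = 7.47e-06) for CTPS1 and 1.67 (SE 0.21, adjusted p = 1.22e-05) for CAD. GOT2, the mitochondrial aspartate aminotransferase, rose by 1.02 (SE 0.13, adjusted p = 1.1e-05). GLUL, which makes glutamine, fell from 1998 ± 28.4 to 1023 ± 372 CPM (-0.97, SE 0.20, adjusted p = 0.000717).

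Genes through which mTORC1 senses amino acids were listed with 33 members, all tested. The list holds both activators and inhibitors of mTORC1, so its counts and medians give no direction for sensing. With decitabine, 6 were higher and 8 lower relative to NT, 7 and 14 relative to Doxo, and 5 and 13 relative to Doxo+Cyta, with medians of -0.10, -0.17 and -0.20. On the reduced set, 11 were higher and 12 lower against NT, beside 4232 and 4307 of all genes. The kinase MTOR itself rose from 38.6 ± 5.73 CPM in Doxo+Cyta to 129.8 ± 15.1 (1.75, SE 0.15, adjusted p = 4.64e-07). SESN3, a sestrin, fell from 107 ± 47.8 to 13.0 ± 4.38 CPM (-3.05, SE 0.35, adjusted p = 5.7e-06). The arginine sensor CASTOR1, named GATSL3 in the table, fell by 2.42 (SE 0.22, adjusted p = 8.51e-07) and the GTPase RRAGD by 2.22 (SE 0.18, adjusted p = 3.02e-07).

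The identity of the cells was checked with markers. The 9 markers of HEL cells were measured in all libraries, with summed levels of 9281 to 10320 CPM in NT, 10010 to 11030 after Doxo, 11080 to 11940 after Doxo+Cyta and 6864 to 9381 after Doxo+Cyta+DAC. None was higher in Doxo+Cyta+DAC in any comparison. Relative to NT, Doxo and Doxo+Cyta, 4, 5 and 7 of 9 were lower, beside 23.7%, 30.4% and 30.5% of all genes. GATA1, the erythroid and megakaryocytic factor, went from 367 ± 47.7 CPM in Doxo+Cyta to 182 ± 10.2 (-1.01, SE 0.10, adjusted p = 1.72e-06), and JAK2, which this line carries in a mutant form, from 409.9 ± 119 to 162 ± 21.7 (-1.34, SE 0.19, adjusted p = 4.36e-05). KLF1 fell by 0.65 (SE 0.13, adjusted p = 0.000841), ITGA2B fell by 0.59 (SE 0.12, adjusted p = 0.000802) and HBG2 fell relative to Doxo (-0.52, SE 0.14, adjusted p = 0.00671). Of 10 markers of other cell types, 7 had at most 8 counts in any library, and MS4A1 had none. The summed level of the list was 131 to 139.6 CPM in NT, 104 to 117 after Doxo, 99.9 to 126 after Doxo+Cyta and 123 to 147 after Doxo+Cyta+DAC. Almost all of it was PECAM1, which megakaryocytic cells also express, since without it the sums were 2.68 to 7.50 CPM over the 12 libraries. PECAM1 was higher in Doxo+Cyta+DAC than in Doxo (0.29, SE 0.10, adjusted p = 0.0247), and likewise than in Doxo+Cyta (0.26, SE 0.10, adjusted p = 0.041). The lower HEL markers moved with the higher transporters, and their part in that result was not tested.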

How the data were processed

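RNA was sequenced from 12 HEL cultures in 4 groups. The authors deposited raw fragment counts per gene, made with FastQC and read filtering, Bowtie2 2.2.8 on GRCh38 and featureCounts 1.6.0 on paired fragments without regard to strand. Bowtie2 does not split reads over introns, so fragments across exon junctions are counted less. How fragments that map to several places were treated was not given with certainty in the sources used here. The table held 26485 genes, of which 4 with a missing count were left out. Groups were taken from the sample labels, and depth was 12763582 to 19106235 counts per library. Whether cultures of a group were independent is known only from the label of biological replicates, so p-values measure the spread between these libraries.

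Counts were filtered with filterByExpr, scaled by TMM and fitted over all 4 groups with edgeR 4.0.16 (R 4.3.3, limma 3.58.1) by the quasi-likelihood test, two-sided, with Benjamini-Hochberg adjustment over 14164 genes. Every adjusted p is from this test unless DESeq2 is named. The fit was tested on simulated data with 200 changed genes. Levels are CPM, or CPM per kilobase of the deposited exon length. Alternatives were DESeq2 1.42.0, RLE or upper-quartile scaling, no filter, only the groups compared, a fold change over 2 with adjusted p under 0.01, and leaving out each library. Leaving out Doxo 4 and Doxo+Cyta 20 together was added after seeing the data. The 18 alternatives of a single gene are these without the stricter threshold.

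The transporters and gene lists were chosen with earlier results of these data known. The genes named were the transporters, ATF4, MYC, NFE2L2, SLC7A7, SLC7A8, and, of each list, from up to 4 genes with the largest called change of Doxo+Cyta+DAC over Doxo+Cyta or over Doxo, where the group with more averaged 1 CPM or above. SLC7A10 and the sparse marker MS4A1 were named after their values were seen. For the 3 transporters whose group means ranged most, the 3 genes most alike are given. Promoter windows are from RefSeq (GRCh38.p14). A comparison of protein sequences was not run here. Tables were made in Python 3.11.15 (pandas 2.3.3, numpy 2.4.6) and figures with matplotlib 3.10.9.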

Additional observations from a re-analysis of the deposited data

How the results depend on the processing

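No paired analysis was possible because no replicate number occurs in more than 1 group. The transporters called in Doxo+Cyta+DAC stayed past the threshold in the same direction in 125 of 126 alternative values against NT, in 126 of 126 against Doxo and in 144 of 144 against Doxo+Cyta, the exception being SLC1A4 against NT without NT replicate 1. With a fold change over 2 and adjusted p under 0.01, 4 transporters were called against Doxo in place of 7, since the threshold is stricter. Under it SLC1A4 (0.92 on the log2 scale) and SLC7A6 (0.89) were also lost against NT, and SLC38A2 (0.76) against Doxo+Cyta. The share of all genes at this threshold was not counted. Leaving out 1 library at a time gave 6 to 8, 7 to 8 and 8 to 9 transporters called against NT, Doxo and Doxo+Cyta. Over all genes these fits called 4461 to 7740, 6966 to 9033 and 7605 to 8800 in either direction.

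Counts without decitabine were small and moved. In Doxo relative to NT, where none was called, DESeq2 and a fit of only the groups compared each called 1, leaving out 1 library gave 0 to 1, and leaving out Doxo 4 and Doxo+Cyta 20 together gave 3. In Doxo+Cyta relative to NT, DESeq2 called 1 and the fit without both libraries 2. In Doxo+Cyta relative to Doxo, with 1 called, DESeq2 called 2, no filter 2, only the groups compared 0, the stricter threshold 0, leaving out 1 library 0 to 2 and leaving out both libraries 4. The cause was not tested.

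Changes of sign occurred in 23 values of single transporters, beside 908 values on the same side of the threshold in the same direction, 29 that passed only in the alternative and 12 that no longer passed. In Doxo relative to NT, the log2 difference of SLC38A2 was -0.0054 with upper-quartile scaling and -0.0105 with no filter, and over the libraries left out singly it ran from -0.0905 to 0.18. There, SLC1A4 ran from -0.43 to 0.10, SLC7A5 from -0.0092 to 0.46 and SLC7A6 from -0.26 to 0.0432. In Doxo+Cyta relative to NT, SLC1A4 ran from -0.38 to 0.0219, SLC1A5 from -0.38 to 0.008 and SLC3A2 from -0.0194 to 0.32. Between Doxo+Cyta+DAC and Doxo+Cyta, SLC3A2 ran from -0.0216 to 0.32, and in Doxo+Cyta relative to Doxo, SLC1A4 ran from -0.27 to 0.25 and SLC38A5 from -0.0419 to 0.32. Without Doxo 4 and Doxo+Cyta 20 together, SLC7A5 in Doxo and SLC3A2 in Doxo+Cyta were at -0.0093 and -0.0191 relative to NT, and SLC7A6 and SLC1A4 in Doxo+Cyta were at 0.0781 and 0.0496 relative to Doxo.

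The number of genes called over the whole table moved more than these. In Doxo relative to NT it was 1515, with 81 to 3137 when 1 library was left out, 5267 without both libraries and 2151 by DESeq2. In Doxo+Cyta relative to NT it was 207, with 0 to 711, 2037 and 835, and 13 in a fit of only the groups compared and 358 with no filter. In Doxo+Cyta relative to Doxo it was 481, with 130 to 877, 1261 and 933, and 67 in a fit of only the groups compared. Against NT, Doxo+Cyta+DAC had 6893 called genes, with 4461 to 7740 when 1 library was left out. Depth limits SLC38A1, SLC7A8 and SLC38A3, and only 2 NT libraries stand behind each comparison with NT.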
